A study of Mus musculus with 9 samples.

Results

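Mouse CD8+ T cells that carried DsRed-labelled stromal mitochondria after co-culture were compared with T cells cultured without stromal cells. The comparison uses 6 of the 9 libraries of the series, chosen by their titles: 3 of the group MitoPositive and 3 of the group monoculture, each lettered B, C and D. All groups used T cells taken from spleen of Pmel Ly5.1 mice, whose T cells carry a transgenic receptor for a melanoma antigen together with a congenic form of CD45. MitoPositive cells had spent 36 h with DM5, an immortalised bone marrow mesenchymal stromal line derived from BL6 mice whose mitochondria were marked with the red fluorescent protein DsRed, and had then been sorted as CD8+ and DsRed-positive. The DsRed-negative cells of the same kind of co-culture (MitoNegative, 3 libraries) appear below only as values set beside the others. Monoculture cells had no co-culture, and the labels give no sort for them. MitoPositive and monoculture cells therefore differ in stromal contact and in DsRed, and may differ in the sort and in time in culture. These cannot be told apart in this contrast. The labels do not say how T cells with stromal material inside were separated from T cells with stromal material on their surface, and DM5 is a single line.

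Mitochondria can pass between cells through thin membrane bridges called nanotubes, and bone marrow stromal cells are well-known donors. In a CD8+ T cell, signals through the antigen receptor, cytokine receptors and interferon receptors drive the change from a resting, recirculating cell held in place by factors such as KLF2 and TCF1 to an effector cell that makes interferon gamma and granzymes. That change brings a higher use of glucose and amino acids, and mitochondria support it through respiration, one-carbon metabolism and stress signals such as ATF4.

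Each library held between 53546152 and 74722832 counts over 55421 annotated genes, of which 15711 passed the filter on low counts and were tested. No 2 libraries of a group agreed within counting noise (chi-square per degree of freedom 17.6 to 61.2), so none was taken for a library deposited again, which does not show that they are separate biological replicates. The labels do not say whether the letters stand for separate mice or cultures, so each p-value measures only the spread between these libraries, which may be technical. Levels are given below as CPM (counts scaled to a common library size) after scaling by trimmed mean of M-values, in the order B, C and D, and a gene is called when its Benjamini-Hochberg adjusted p from edgeR's quasi-likelihood test was below 0.05. CPM values are not divided by gene length, so they compare libraries and not genes. In bulk RNA, fewer cells of a type and less RNA per cell cannot be told apart. Of 16 markers of CD8+ T cells, 11 were called lower in MitoPositive and 0 higher (7 lower without MitoPositive C), against 19.9% of all tested genes called lower. Cd8a, which encodes the CD8 alpha chain, was measured at 1253, 1066 and 1204 CPM in monoculture and 1273, 1182 and 1152 CPM in MitoPositive, and the groups overlapped (log2 fold change 0.03, SE 0.08, adjusted p = 0.773).

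Of the 15711 genes tested, 6637 (42.2%) were called: 3504 (22.3%) were higher in MitoPositive and 3133 (19.9%) were lower, with a median log2 fold change of 0.0034 over all of them. All MitoPositive libraries lay above all monoculture libraries in 27.3% of the genes tested, and below them in 24.3%. At least a 2-fold change was reached by 1939 called genes (12.3%), of which 1410 (8.97%) were higher and 529 (3.37%) lower. Most of those large rises lay in genes with little RNA in T cells cultured alone. Among the 11393 genes with a monoculture mean of at least 1 CPM, 461 rose and 334 fell at least 2-fold. Among 3762 genes between 0.1 and 1 CPM, 566 rose and 195 fell by that much. A further 556 genes had a monoculture mean below 0.1 CPM and passed the filter through the co-cultured libraries. Of these, 383 were called higher, all at least 2-fold, and 0 lower. These genes remain in the counts above and in the list counts and medians below, and how many each list holds is not given here. Pparg, in the list of fatty acid oxidation, is an example. The rises of these genes are not read as support. They are described apart, after the genes that T cells express on their own.

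**Figure D1:**
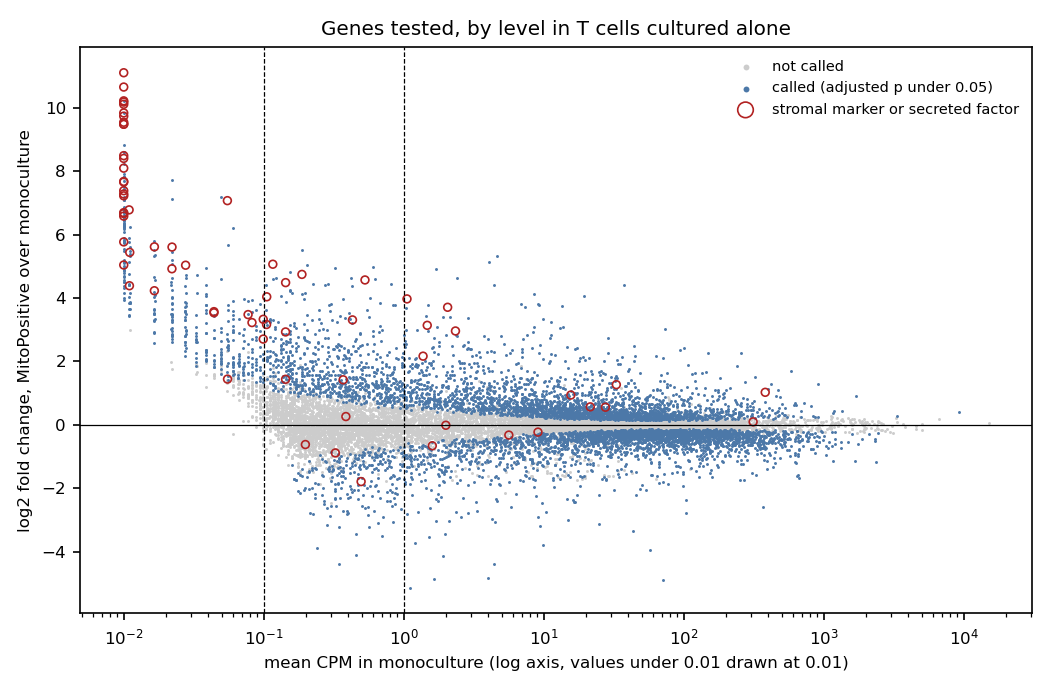
Each point is 1 of 15711 genes, with its mean CPM in monoculture on a log axis and its fitted log2 fold change, MitoPositive over monoculture, on the vertical axis. Dashed lines mark 0.1 and 1 CPM, and red circles mark stromal markers and secreted factors of stromal cells. Among genes at 1 CPM or more, called rises and falls both occur (2446 and 2899 genes), while genes drawn at the left edge rise, and fitted values there depend on the prior count of the fit.

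The gene lists showed a mixture of directions, and a list is read below against the shares over all genes tested, 22.3% called higher and 19.9% called lower. Lists of the interferon, p53 and ATF4 responses had the largest shares of members called higher among the lists plotted. Genes of the T-cell receptor complex, naive and stem-like memory genes and genes of cholesterol and fatty acid synthesis had the largest shares called lower. Ribosomal protein and proteasome genes were called least often.

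**Figure D2:**
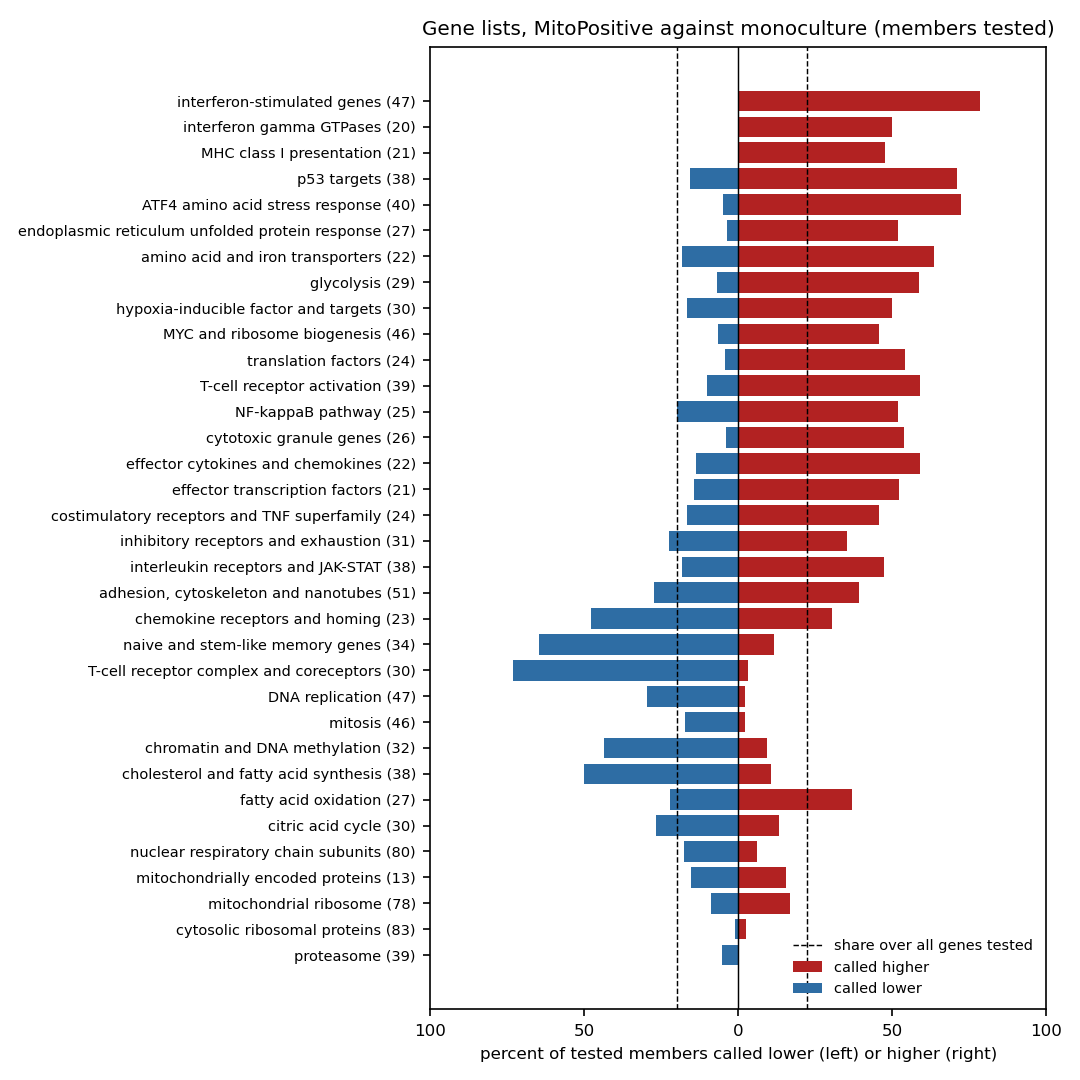
Bars give the percent of tested members of each list called higher (red, right) or lower (blue, left) in MitoPositive against monoculture, with the number of tested members in brackets. Dashed lines mark the shares over all 15711 genes, 22.3% higher and 19.9% lower. The interferon-stimulated genes (37 of 47 higher, 0 lower) and the T-cell receptor complex (1 of 30 higher, 22 lower) have the longest bars to the right and to the left.

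Interferon-stimulated genes were higher in T cells that carried stromal mitochondria: 37 of the 47 tested members were called higher and 0 lower (median log2 fold change 1.56). Rsad2, which encodes the antiviral enzyme viperin, stood at 5.31, 3.56 and 4.27 CPM in monoculture and at 165, 67.1 and 48.6 CPM in MitoPositive (log2 fold change 4.42, SE 0.72, adjusted p = 0.00285). For Ifit1, whose protein binds viral RNA, the values were 18.1, 8.96 and 13.5 CPM in monoculture and 298, 134 and 109 CPM in MitoPositive (log2 fold change 3.73, SE 0.61, adjusted p = 0.00299). Neither gene overlapped between the groups, and in both the B library was the highest in MitoPositive, above the C and D values added together. Mx1, a dynamin-like antiviral GTPase, was 24.5-fold higher (log2 fold change 4.61, SE 0.60, adjusted p = 0.001), and Isg15, a ubiquitin-like modifier, rose from 10.1, 7.999 and 9.51 CPM to 203, 98.6 and 73.99 CPM (log2 fold change 3.77, SE 0.57, adjusted p = 0.00211). Ifit3 rose from 11.7, 6.77 and 8.99 CPM to 251, 79.6 and 56.5 CPM (log2 fold change 3.82, SE 0.86, adjusted p = 0.0118). Its near-identical copy Ifit3b was called too, but not when monoculture C or D was left out (adjusted p = 0.0666 and 0.0685), and reads of the pair may have been split between them. Oasl2, an RNA sensor relative that stood below 1 CPM in monoculture, was called in the fit of all 9 libraries (log2 fold change 4.63, SE 1.10, adjusted p = 0.0146) and not without monoculture B or C (adjusted p = 0.0576 and 0.051). Irf7, the factor that amplifies the response, rose from 44.4, 36.6 and 40.4 CPM to 192, 112 and 104 CPM (log2 fold change 1.75, SE 0.32, adjusted p = 0.0042).

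Summed over its members, the interferon list amounted to 4563, 4024 and 4286 CPM in monoculture and 10027, 6332 and 5945 CPM in MitoPositive, with 11789, 7599 and 6858 CPM in MitoNegative. The 2 groups compared did not overlap, and the B library was highest in each of the 3 groups. Without MitoPositive B, 32 members were called higher, and leaving out any 1 of the 6 libraries gave between 28 and 37. Genes that respond to interferon gamma moved less: 10 of 20 guanylate-binding proteins and related members were called higher and 0 lower, with a median of 0.34. Gbp5, one of these GTPases, rose from 84.6, 85.6 and 81.97 CPM to 171, 170.5 and 147 CPM (log2 fold change 0.95, SE 0.08, adjusted p = 2.83e-06), although the close similarity of the family leaves room for shared reads. Cxcl10, a chemokine that attracts T cells and was below 1 CPM in monoculture, reached 20.9, 10.1 and 6.67 CPM (log2 fold change 4.57, SE 0.71, adjusted p = 0.00202).

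Genes of MHC class I presentation were also called in 1 direction: 10 of 21 were called higher and 0 lower (median log2 fold change 0.21). Tap1, a subunit of the peptide transporter, rose from 448, 457 and 497 CPM to 628, 630.5 and 642 CPM (log2 fold change 0.44, SE 0.06, adjusted p = 0.000178). The nonclassical class I genes H2-Q6, H2-Q7 and H2-T22 rose 1.85-fold, 1.46-fold and 1.701-fold, and reads may be shared within this family of near copies. B2m, the light chain of class I molecules, was at 2486, 2263 and 2679 CPM and 2747, 2614 and 2524 CPM and was not called (log2 fold change 0.09, SE 0.09, adjusted p = 0.476).

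The promoters of Ifit1, Isg15 and Rsad2 are shown as examples that hold a short element found before many, but not all, interferon-stimulated genes. Each run holds the 250 bases before the start of the gene in RefSeq (GRCm38.p6), written 5′ to 3′ on the strand of the gene, and capitals mark the interferon response element searched: GAAA, any 2 bases, GAAA, on either strand. The windows are those of Ifit1 (chr19:34640639-34640888, plus strand), Isg15 (chr4:156200819-156201068, minus strand) and Rsad2 (chr12:26456453-26456702, minus strand).
Ifit1: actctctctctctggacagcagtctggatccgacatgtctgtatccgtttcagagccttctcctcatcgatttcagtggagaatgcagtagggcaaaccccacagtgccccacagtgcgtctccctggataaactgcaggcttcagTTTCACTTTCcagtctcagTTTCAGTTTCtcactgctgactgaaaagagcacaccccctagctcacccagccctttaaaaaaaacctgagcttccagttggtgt
Isg15: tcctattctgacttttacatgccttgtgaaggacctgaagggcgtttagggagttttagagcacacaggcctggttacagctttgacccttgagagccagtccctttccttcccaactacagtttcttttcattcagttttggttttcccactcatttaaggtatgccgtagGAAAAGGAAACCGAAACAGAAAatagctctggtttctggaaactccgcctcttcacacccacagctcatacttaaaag
Rsad2: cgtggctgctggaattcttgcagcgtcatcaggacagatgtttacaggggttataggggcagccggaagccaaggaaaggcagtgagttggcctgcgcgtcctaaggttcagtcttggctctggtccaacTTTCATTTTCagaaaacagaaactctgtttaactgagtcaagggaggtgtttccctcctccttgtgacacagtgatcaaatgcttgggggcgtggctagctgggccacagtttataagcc
The element occurred in 2 places before Ifit1, in 3 overlapping places before Isg15 and in 1 place before Rsad2. In windows of 300 bases (250 before to 50 after the start), 21 of the 43 windows found for 34 of the 47 interferon-stimulated genes held it (48.8%), as did 11 of 16 windows of interferon gamma GTPases (68.8%) and 5 of 20 windows of class I genes (25%). Over all 32851 windows of the table the share was 3.44%. The 250 bases before the start of Irf7 and of Oasl2, both called higher, held 0 matches. For these 2 genes the 50 bases after that start were not found within an annotated transcript of the gene. The start used for them may therefore not be the one the gene uses. Members called and not called were not compared. Such a match is a description of letters and not of binding.

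Targets of p53, the DNA damage factor, were mostly called higher: 27 of the 38 tested members were called higher and 6 lower (median log2 fold change 0.80). Rises were ranked among called protein-coding genes with at least 1 CPM in monoculture, groups not overlapping, and outside other cell types' markers. Of these, Cdkn1a had the largest rise on the log2 scale. It encodes the cyclin-dependent kinase inhibitor p21 (ENSMUSG00000023067.14, GRCm38 chr17:29090976-29100727). It stood at 3.52, 5.06 and 5.37 CPM in monoculture and 194, 206 and 162 CPM in MitoPositive, 40.3-fold higher (log2 fold change 5.33, SE 0.15, adjusted p = 1.14e-08). All 3 MitoPositive libraries lay far above the highest monoculture library. Phlda3, a p53-induced repressor of AKT, varied little between libraries: 8.55, 8.35 and 8.73 CPM against 70.3, 76.3 and 70.2 CPM (log2 fold change 3.08, SE 0.06, adjusted p = 7.02e-11). Plk2, a stress-induced kinase, rose 10.7-fold, and Ccng1, cyclin G1, rose from 294, 256 and 273 CPM to 694, 699 and 684 CPM (log2 fold change 1.34, SE 0.07, adjusted p = 7.66e-08). Zmat3, an RNA-binding target, rose 2.52-fold and Mdm2, the ubiquitin ligase that limits p53, 1.54-fold. Sulf2, a sulfatase below 1 CPM in monoculture, reached 7.46, 10.2 and 8.103 CPM. Trp53 itself fell from 106, 115 and 124 CPM to 93.97, 101 and 94.8 CPM (log2 fold change -0.25, SE 0.07, adjusted p = 0.00825).

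Among the BCL2 family, which decides survival and death at the mitochondrial surface, 6 of 15 members were called higher and 1 lower. The death-promoting members Bax and Pmaip1 (NOXA) rose from 66.1, 72.8 and 62.99 CPM to 139, 152 and 139.6 CPM and from 13.8, 13.6 and 11.97 CPM to 38.2, 39.4 and 34.5 CPM (1.09, SE 0.07 and 1.51, SE 0.08 on the log2 scale). The survival genes Bcl2l1, encoding BCL-XL, and Bcl2l2 rose 1.54-fold and 1.63-fold. Bbc3, encoding PUMA, was at 50.4, 56.8 and 46.3 CPM and 52.2, 61.9 and 53.4 CPM and was not called (log2 fold change 0.13, SE 0.09, adjusted p = 0.283).

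Genes of mitosis mostly had lower fitted levels in MitoPositive, and how many were called depended on the fit. Of 46 mitosis genes, 45 had a lower fitted level, the median log2 fold change was -1.23, and 8 were called lower and 1 higher. The share called lower was below the 19.9% of all genes tested. With the replicate letter as a block, 45 were called lower in the fit of 9 libraries and 43 in that of 6 libraries, and DESeq2 called 20 without the block. Their summed level was 3377, 3643 and 3805 CPM in monoculture and 1482, 1558 and 1911 CPM in MitoPositive. Mki67, the proliferation antigen Ki-67, shows the spread: 64.2, 132 and 136 CPM in monoculture and 19.9, 32.3 and 75.6 CPM in MitoPositive, where D overlapped monoculture B (log2 fold change -1.38, SE 0.66, adjusted p = 0.142). The D library was the highest MitoPositive library of the summed list, and without it 31 members were called lower. Without monoculture B, 13 were. Smc4, a condensin subunit that packs chromosomes, was steadier at 2553, 2298 and 2213 CPM and 1067, 1043 and 1008 CPM (log2 fold change -1.18, SE 0.10, adjusted p = 2.83e-06), and Ndc80, which links the spindle to the kinetochore, fell 2.305-fold (log2 fold change -1.20, SE 0.27, adjusted p = 0.0072). Cdc25b, a phosphatase that starts mitosis, fell from 95.3, 112 and 104 CPM to 10.6, 12.7 and 21.995 CPM (log2 fold change -2.78, SE 0.30, adjusted p = 0.000292).

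DNA replication genes had smaller differences: 1 of 47 were called higher and 14 lower (median log2 fold change -0.27). The count called lower was between 8 and 22 when 1 library was left out, lowest without MitoPositive B and highest without monoculture B, with 9 without monoculture C or D. With the letter as a block it was 24 in the fit of 9 libraries and 23 in that of 6. E2f2, a factor that switches on S-phase genes, fell from 46.4, 65.2 and 64.9 CPM to 20.05, 28.03 and 28.97 CPM (log2 fold change -1.20, SE 0.21, adjusted p = 0.00237), while E2f1 rose from 6.998, 8.797 and 9.51 CPM to 11.9, 12.9 and 12.2 CPM (log2 fold change 0.55, SE 0.12, adjusted p = 0.00252). Rpa1, which coats single-stranded DNA, fell 1.68-fold. Of 29 genes of cell cycle inhibition and quiescence, 13 were called lower and 5 higher: with the rise of Cdkn1a, Btg2, an antiproliferative factor, fell from 273, 264 and 232 CPM to 108, 113 and 109 CPM (log2 fold change -1.23, SE 0.07, adjusted p = 1.46e-07) and Cdkn2c, the inhibitor p18, fell 2.36-fold. Cdkn1a is a member of this list as well as of the p53 list.

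**Figure D3:**
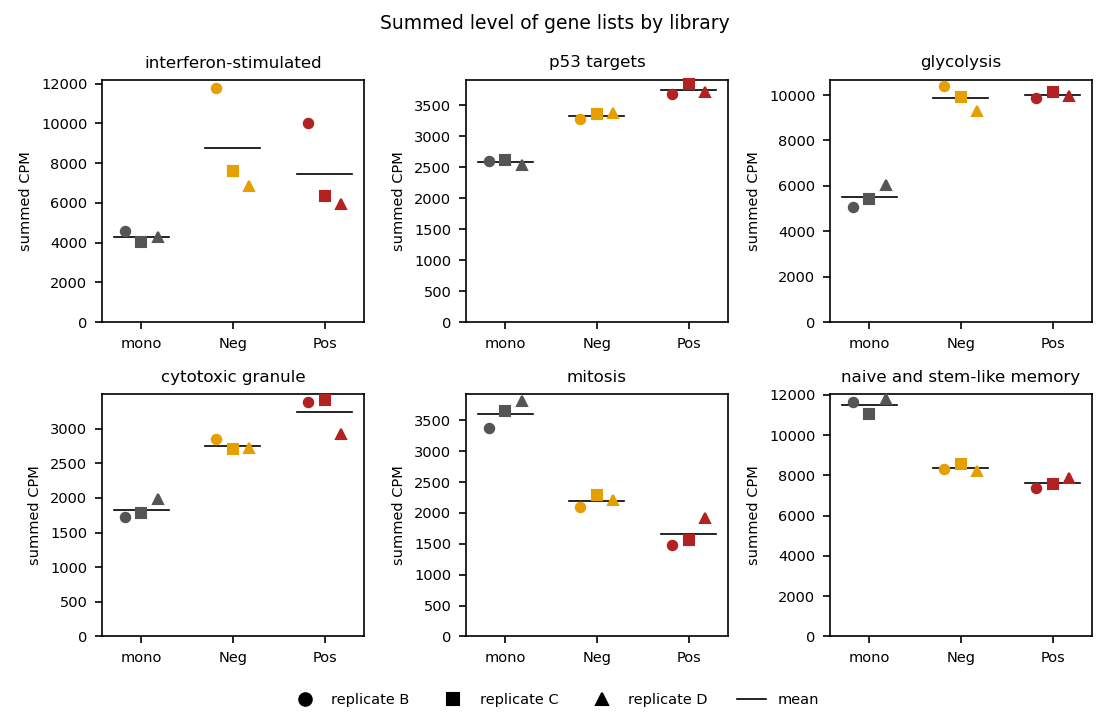
Summed CPM of 6 gene lists in each library, with monoculture (mono), MitoNegative (Neg) and MitoPositive (Pos) on the horizontal axis, symbols for the replicate letter and a line at the mean of 3 libraries. Interferon-stimulated genes are highest in replicate B of each group, and mitosis genes lie at 1482 to 1911 CPM in MitoPositive against 3377 to 3805 CPM in monoculture.

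Effector genes of cytotoxic T cells rose. Of cytotoxic granule genes, 14 of 26 were called higher and 1 lower (median log2 fold change 0.72). Gzmb, the protease granzyme B (ENSMUSG00000015437.5, GRCm38 chr14:56258838-56262260), was measured at 21.3, 52.5 and 38.6 CPM in monoculture and 918, 842 and 613 CPM in MitoPositive, a 21.1-fold difference (log2 fold change 4.40, SE 0.36, adjusted p = 7.66e-05). Prf1, the pore-forming protein perforin, rose from 35.4, 28.6 and 41.9 CPM to 129, 147 and 122 CPM (log2 fold change 1.91, SE 0.13, adjusted p = 1.84e-06). Both were higher in each MitoPositive library than in any monoculture library. Gzmc rose 10.6-fold, and Serpinb9, which shields the cell from its own granzyme B, 4.05-fold. Fasl, the death ligand, rose from 30.2, 24.5 and 19.9 CPM to 66.8, 65.8 and 47.9 CPM (log2 fold change 1.27, SE 0.17, adjusted p = 0.000324).

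Of effector cytokines and chemokines, 13 of 22 were called higher and 3 lower (median log2 fold change 0.79). The summed level of the whole list was 2048, 1916 and 2144 CPM in monoculture and 2093, 2179 and 1864 CPM in MitoPositive. These sums overlapped between the groups. Ifng, interferon gamma (ENSMUSG00000055170.4, GRCm38 chr10:118441046-118445892), rose from 5.23, 3.46 and 3.43 CPM to 149, 207 and 70.9 CPM, 35.2-fold (log2 fold change 5.14, SE 0.50, adjusted p = 0.000251). Lif, a cytokine of the IL-6 family, rose from 0.508, 1.66 and 0.994 CPM to 17.4, 17.2 and 15.05 CPM (log2 fold change 3.97, SE 0.31, adjusted p = 1.37e-05), and Csf1, the macrophage growth factor, from 1.33, 1.66 and 1.42 CPM to 15.1, 15.4 and 8.52 CPM. Ifng varied among the MitoPositive libraries, with D the lowest, while Lif differed little between them. Lif and Csf1 are also made by stromal cells. Tnf rose 2.26-fold (log2 fold change 1.18, SE 0.15, adjusted p = 8.01e-05), whereas Il2 was at 0.0328, 0.0333 and 0.116 CPM and 0.237, 0.168 and 0.126 CPM and was not called (log2 fold change 1.52, SE 0.65, adjusted p = 0.0782). Ccl5, a chemokine of memory T cells, fell from 114, 65.6 and 116 CPM to 34.6, 39.4 and 27.1 CPM (log2 fold change -1.55, SE 0.23, adjusted p = 0.00132), a call lost with the letter as a block in 6 libraries (adjusted p = 0.059).

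Transcription factors of effector differentiation were called higher more often than lower: 11 of 21 were called higher and 3 lower (median log2 fold change 0.46). Bhlhe40, a repressor needed for cytokine output and mitochondrial fitness, rose from 65.2, 85.9 and 69.5 CPM to 562, 668 and 581 CPM (log2 fold change 3.04, SE 0.12, adjusted p = 2.35e-08). Prdm1, encoding BLIMP1, rose from 3.18, 2.68 and 2.95 CPM to 12.6, 11.6 and 9.14 CPM (log2 fold change 1.92, SE 0.14, adjusted p = 1.05e-06). Zeb2, Id2 and Tbx21 (T-bet) rose 3.24-fold, 2.16-fold and 1.87-fold. Eomes, the related T-box factor of memory cells, fell from 14.2, 12.8 and 20.5 CPM to 6.59, 8.33 and 7.89 CPM (log2 fold change -1.06, SE 0.20, adjusted p = 0.00175), and Hif1a rose 2.205-fold.

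Genes induced through the T-cell receptor were mostly higher: 23 of 39 were called higher and 4 lower (median log2 fold change 0.85). Il2ra, the high-affinity chain of the IL-2 receptor, rose from 122, 84.96 and 95.9 CPM to 549, 635 and 453 CPM (log2 fold change 2.44, SE 0.15, adjusted p = 1.34e-06), and Cd69, an early activation antigen, from 30.8, 40.8 and 37.7 CPM to 176, 152 and 157 CPM (log2 fold change 2.15, SE 0.10, adjusted p = 7.29e-08). Fosl2, an AP-1 subunit, rose 8.36-fold, Dusp4, a phosphatase that ends ERK signals, 5.33-fold and Cish, an inhibitor of cytokine signalling, 5.25-fold. Other members differed: Nr4a1, an immediate early reporter of receptor signals, was at 4.21, 11.8 and 6.29 CPM and 15.7, 28.3 and 16.4 CPM and was not called (log2 fold change 1.43, SE 0.48, adjusted p = 0.0513), and Egr2 fell 2.32-fold (log2 fold change -1.22, SE 0.38, adjusted p = 0.0312).

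Costimulatory receptors and TNF superfamily members rose in part. Tnfsf4, encoding OX40 ligand (ENSMUSG00000026700.4, GRCm38 chr1:161395409-161418410), was measured at 1.28, 1.63 and 2.19 CPM in monoculture and 49.1, 56.7 and 48.7 CPM in MitoPositive (log2 fold change 4.92, SE 0.16, adjusted p = 1.15e-08). Its receptor Tnfrsf4 (OX40) rose 4.84-fold, Tnfrsf9 (4-1BB) 3.13-fold and Cd80 3.904-fold. In the list, 11 of 24 members were called higher and 4 lower. Cd28, the main costimulatory receptor, was at 380.3, 387 and 382 CPM and 392, 378 and 354 CPM and was not called (log2 fold change -0.03, SE 0.06, adjusted p = 0.697).

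Of inhibitory receptors and exhaustion genes, 11 of 31 were called higher and 7 lower (median log2 fold change 0.15). Pdcd1, encoding PD-1, rose from 30.9, 39.7 and 30.1 CPM to 145, 168 and 105 CPM (log2 fold change 2.05, SE 0.20, adjusted p = 8.18e-05). Havcr2, encoding TIM-3, rose from 3.097, 2.36 and 3.13 CPM to 33.9, 37.9 and 18.03 CPM (log2 fold change 3.38, SE 0.28, adjusted p = 3.13e-05), and Entpd1 (CD39) rose 4.38-fold. Tox, the factor that fixes exhaustion, fell from 71.7, 73.98 and 73.8 CPM to 54.4, 52.9 and 46.6 CPM (log2 fold change -0.51, SE 0.11, adjusted p = 0.00386), in the opposite direction to both receptors. Pdcd1lg2, encoding the PD-1 ligand PD-L2, rose from 1.41, 2.79 and 1.97 CPM to 28.3, 28.8 and 23.5 CPM (log2 fold change 3.71, SE 0.19, adjusted p = 3.63e-07); stromal cells make it as well. Lag3 rose 1.35-fold and Tigit was not called (log2 fold change 0.26, SE 0.10, adjusted p = 0.0573).

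Cytokine receptors and JAK-STAT genes rose more often than they fell: 18 of 38 were called higher and 7 lower (median log2 fold change 0.21). Il12rb2, the signalling chain of the IL-12 receptor, had tight replicates at 95.3, 113 and 112 CPM and 395, 397 and 389 CPM (log2 fold change 1.88, SE 0.07, adjusted p = 2.22e-08), and Il18rap, of the IL-18 receptor, rose 4.28-fold. Il6ra fell from 12.8, 10.8 and 15.4 CPM to 2.91, 3.21 and 5.75 CPM (log2 fold change -1.71, SE 0.32, adjusted p = 0.0024). Il7r, the receptor of the survival cytokine IL-7, was at 596, 467 and 459 CPM and 578, 479 and 578 CPM and was not called (log2 fold change 0.10, SE 0.12, adjusted p = 0.517). Of NF-kappaB genes, 13 of 25 were called higher and 5 lower (median log2 fold change 0.21): the feedback inhibitor Tnfaip3 (A20) rose from 119, 121 and 106 CPM to 324, 336 and 393 CPM (log2 fold change 1.61, SE 0.10, adjusted p = 2.9e-07), and Bcl3 and Nfkbiz rose 2.51-fold and 2.26-fold.

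Genes of naive and stem-like memory T cells fell: 4 of the 34 tested members were called higher and 22 lower (median log2 fold change -0.67). Falls were ranked among called protein-coding genes with at least 5 CPM in monoculture, groups not overlapping, and outside other cell types' markers. Of these, Klf2 had the largest fall on the log2 scale. It encodes the factor that keeps T cells quiescent and recirculating (ENSMUSG00000055148.7, GRCm38 chr8:72319033-72321656). It dropped from 67.5, 72.6 and 74.4 CPM to 1.79, 2.09 and 3.38 CPM, 29.4-fold lower (log2 fold change -4.88, SE 0.20, adjusted p = 2.55e-07). Tcf7, which encodes TCF1, fell from 1651, 1510.4 and 1868 CPM to 690.3, 735 and 871 CPM (log2 fold change -1.13, SE 0.10, adjusted p = 6.54e-06), Id3 from 96.8, 116 and 98.1 CPM to 15.7, 21.5 and 23.1 CPM (log2 fold change -2.37, SE 0.15, adjusted p = 2.1e-06), and Lef1 1.56-fold. In each of the 4 the MitoPositive libraries lay below every monoculture library, as in 24.3% of all genes tested. The naming rule required this of the genes with the largest falls. Bach2, a repressor of effector genes, fell 1.27-fold (log2 fold change -0.35, SE 0.06, adjusted p = 0.000885), and Foxo1 1.18-fold (log2 fold change -0.24, SE 0.07, adjusted p = 0.0149).

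**Figure D4:**
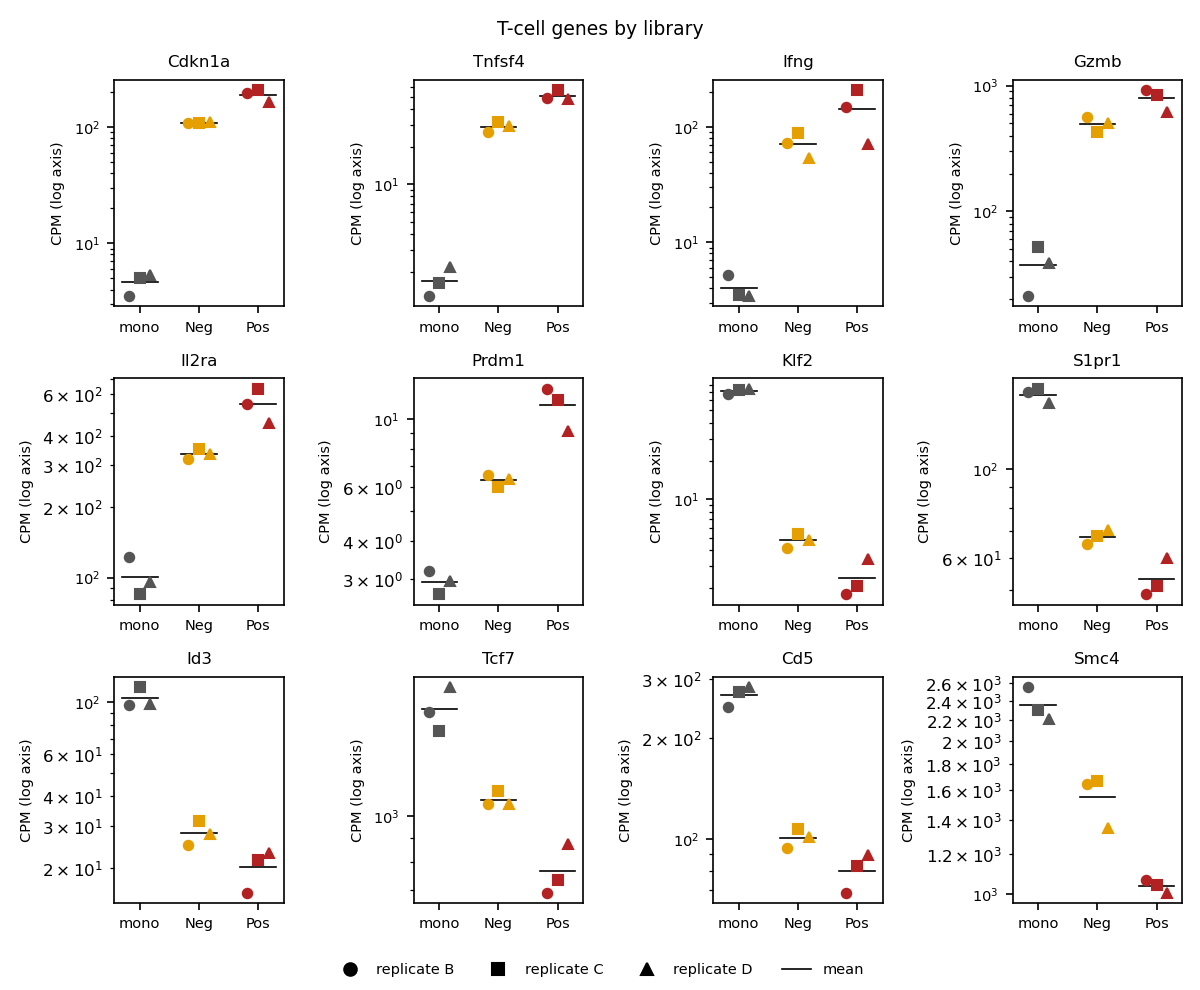
CPM of 12 T-cell genes in each library on log axes, with monoculture (mono), MitoNegative (Neg) and MitoPositive (Pos) on the horizontal axis, symbols for the replicate letter and a line at the mean. MitoPositive and monoculture do not overlap in any panel, and the MitoNegative mean lies between them in each, as for Klf2 at 71.5, 4.75 and 2.42 CPM. The naming rule required this lack of overlap of the genes with the largest changes. The 12 genes are a selection, and other genes had another order. Against monoculture, the interferon list had a median log2 fold change of 1.56 in MitoPositive and 1.73 in MitoNegative.

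Chemokine receptors and homing genes changed in both directions: 7 of 23 were called higher and 11 lower (median log2 fold change -0.51). S1pr1, the egress receptor that KLF2 is known to drive, fell from 155, 158 and 146 CPM to 48.8, 51.3 and 60.1 CPM (log2 fold change -1.52, SE 0.08, adjusted p = 1.14e-07). Ccr7, a main receptor for lymph node entry, was at 415, 409 and 483 CPM and 389.9, 446 and 517 CPM, overlapped and was not called (log2 fold change 0.05, SE 0.10, adjusted p = 0.727). Ccr4, a receptor of skin homing, rose 2.58-fold. Cxcr3 and Cxcr5 fell 2.49-fold and 3.15-fold, and Itga4, an integrin chain, fell from 815, 598 and 556 CPM to 215, 227 and 218 CPM (log2 fold change -1.58, SE 0.12, adjusted p = 3.03e-06). Itgae, the CD103 chain, fell 2.86-fold (adjusted p = 0.0197), a call lost without MitoPositive C or monoculture B or D (adjusted p = 0.0721, 0.0577 and 0.0604) and with the letter as a block in 6 libraries (adjusted p = 0.0566).

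Genes of the antigen receptor and its proximal signals were mostly called lower: 1 of 30 were called higher and 22 lower (median log2 fold change -0.31). Trac, the alpha constant region of the receptor, fell from 269.7, 277 and 322 CPM to 183, 182 and 188 CPM (log2 fold change -0.65, SE 0.07, adjusted p = 1.81e-05) and Cd3d 1.28-fold. Cd5, an inhibitory coreceptor, fell from 248, 275 and 285 CPM to 69.01, 82.7 and 89.1 CPM (log2 fold change -1.75, SE 0.09, adjusted p = 1.5e-07), and Cd6 from 361, 364 and 399 CPM to 168, 173 and 178 CPM (log2 fold change -1.12, SE 0.06, adjusted p = 1.44e-07). Lck and Lat, the kinase and adaptor that start the signal, fell 1.33-fold and 1.495-fold. Thy1 and Ptprc (CD45) were not called (log2 fold change 0.06, SE 0.10, adjusted p = 0.661 for the former and log2 fold change -0.15, SE 0.08, adjusted p = 0.153 for the latter).

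Glycolysis genes rose: 17 of 29 were called higher and 2 lower (median log2 fold change 0.63), and their summed level went from 5086, 5431 and 6044 CPM to 9858, 10131 and 9969.6 CPM. Pgk1, phosphoglycerate kinase, rose from 222, 255 and 292 CPM to 1217, 1283 and 1168 CPM (log2 fold change 2.26, SE 0.11, adjusted p = 7.66e-08). Gapdh rose from 774, 899 and 1065 CPM to 2117, 2312 and 2264 CPM (log2 fold change 1.29, SE 0.11, adjusted p = 3.15e-06). Hk2, the inducible hexokinase that commits glucose to the pathway, rose 4.03-fold, Aldoa 2.45-fold and Tpi1 1.99-fold. Ldha, lactate dehydrogenase, was at 464, 542 and 595 CPM and 624, 584 and 603 CPM and was not called (log2 fold change 0.18, SE 0.09, adjusted p = 0.136). The glucose transporters Slc2a1 and Slc2a3 rose 1.55-fold and 1.804-fold. Targets of hypoxia-inducible factors, some of them glycolysis genes, were called higher more often than lower: 15 of 30 were called higher and 5 lower (median log2 fold change 0.33). Epas1, encoding HIF-2 alpha, rose from 0.918, 0.815 and 1.39 CPM to 12.4, 16.96 and 10.9 CPM (log2 fold change 3.68, SE 0.25, adjusted p = 1.18e-06), and Vegfa from 2.56, 2.79 and 1.67 CPM to 20.2, 18.7 and 15.7 CPM (log2 fold change 2.96, SE 0.18, adjusted p = 4.26e-07); stromal cells express both.

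The amino acid stress response under ATF4 was higher: 29 of 40 were called higher and 2 lower (median log2 fold change 0.56). Atf4 itself rose from 66.7, 77.3 and 57.7 CPM to 171, 190.4 and 160.3 CPM (log2 fold change 1.37, SE 0.10, adjusted p = 1.34e-06). Slc7a5, a large neutral amino acid transporter, rose from 35.9, 50.8 and 45.3 CPM to 178, 226 and 127 CPM (log2 fold change 2.01, SE 0.24, adjusted p = 0.000441). Asns, asparagine synthetase, rose from 10.8, 10.5 and 12.3 CPM to 32.6, 38.1 and 23.9 CPM (log2 fold change 1.49, SE 0.19, adjusted p = 0.000284). In all 3 the groups were apart and MitoPositive D was the lowest library of its group. Slc1a4 rose 13.8-fold, Gpt2 4.88-fold and Stc2 6.14-fold. Chac1, which degrades glutathione, and Pycr1, which makes proline, were below 1 CPM in monoculture and reached 2.89, 4.5005 and 2.15 CPM and 2.87, 2.35 and 1.33 CPM. Trib3, a feedback regulator of ATF4, was at 18.3, 14.5 and 17.2 CPM and 15.4, 18.6 and 15.2 CPM and was not called (log2 fold change -0.02, SE 0.11, adjusted p = 0.876). Of amino acid and iron transporters, 14 of 22 were called higher and 4 lower (median log2 fold change 0.46), with Tfrc, the transferrin receptor, rising from 51.6, 83.2 and 55.5 CPM to 273, 292 and 292 CPM (log2 fold change 2.17, SE 0.15, adjusted p = 5.18e-06).

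The promoters of Asns (chr6:7693210-7693459, minus strand) and Chac1 (chr2:119350992-119351241, plus strand) are shown as examples with an ATF4 element, in the same form as above. Capitals mark a match to TGATGCAA, TGATGAAA or TGATGTAA on either strand.
Asns: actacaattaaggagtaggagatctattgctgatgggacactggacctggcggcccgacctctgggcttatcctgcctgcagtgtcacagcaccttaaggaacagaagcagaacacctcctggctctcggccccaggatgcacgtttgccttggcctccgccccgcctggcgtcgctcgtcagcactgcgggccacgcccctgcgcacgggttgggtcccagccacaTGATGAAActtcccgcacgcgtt
Chac1: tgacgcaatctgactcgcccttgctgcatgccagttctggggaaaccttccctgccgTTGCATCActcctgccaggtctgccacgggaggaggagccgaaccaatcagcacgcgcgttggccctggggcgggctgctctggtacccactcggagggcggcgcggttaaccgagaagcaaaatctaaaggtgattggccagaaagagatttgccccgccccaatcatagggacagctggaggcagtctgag
Each of the 2 runs held 1 match. Over the whole list, 13 of 36 windows of 300 bases held such a match (36.1%), against 3% of all 32851 windows.

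The unfolded protein response of the endoplasmic reticulum rose in part: 14 of 27 were called higher and 1 lower (median log2 fold change 0.22). Eif2ak3, encoding the sensor PERK, which also acts upstream of ATF4, rose from 69.3, 85.7 and 57.4 CPM to 299, 314 and 307 CPM (log2 fold change 2.12, SE 0.12, adjusted p = 4.47e-07). Ern1, encoding the sensor IRE1, rose 2.21-fold and Hspa5, the chaperone BiP, 1.65-fold. Dnajc3, an inhibitor of PERK, fell 1.504-fold (log2 fold change -0.59, SE 0.06, adjusted p = 2.2e-05). Of one-carbon and nucleotide synthesis genes, 8 of 27 were called higher and 1 lower (median log2 fold change 0.10); the mitochondrial folate enzyme Mthfd2 rose from 42.3, 50.4 and 46.4 CPM to 82.4, 98.6 and 74.6 CPM (log2 fold change 0.88, SE 0.11, adjusted p = 0.000127).

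Lipid synthesis went the other way: 4 of 38 were called higher and 19 lower (median log2 fold change -0.21). The genes called lower included a gene of export beside synthesis. Among them were Elovl6, a fatty acid elongase, which fell from 82.2, 65.6 and 69.96 CPM to 21.9, 23.3 and 28.8 CPM (log2 fold change -1.56, SE 0.12, adjusted p = 5.89e-06), the cholesterol exporter Abca1 (2.08-fold lower) and the sterol sensor Insig1 (1.84-fold lower). Fatty acid oxidation was mixed: 10 of 27 were called higher and 6 lower (median log2 fold change 0.11). Cpt1a, which lets fatty acids into mitochondria, fell from 91.99, 105 and 109 CPM to 66.7, 73.8 and 86.7 CPM (log2 fold change -0.43, SE 0.10, adjusted p = 0.0047), and Acsl3 and Acsl1, which activate fatty acids, rose 1.65-fold and 1.42-fold. Of citric acid cycle genes, 4 of 30 were called higher and 8 lower (median log2 fold change -0.08), with 2 called higher without MitoPositive B or C and 1 without monoculture B or C. Idh1 fell 1.85-fold and Me2 1.47-fold, while Got1 of the malate-aspartate shuttle rose 1.38-fold.

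Mitochondrially encoded ribosomal RNA, as far as it was left after depletion, summed to 2307, 1992 and 2523 CPM in monoculture, 5243, 4570.2 and 5328 CPM in MitoPositive and 8416, 7981 and 8355 CPM in MitoNegative. The 12S RNA mt-Rnr1 rose 3.25-fold against monoculture (log2 fold change 1.70, SE 0.09, adjusted p = 1.41e-07) and the 16S RNA mt-Rnr2 1.87-fold (log2 fold change 0.90, SE 0.12, adjusted p = 9.32e-05). The order was thus monoculture below MitoPositive below MitoNegative, with no overlap; how far ribosomal depletion differed between libraries was not tested. Counts do not tell T-cell from stromal copies of these RNAs, since both cell types are of mouse origin. Of the 13 mitochondrially encoded protein genes, 2 were called higher and 2 lower. mt-Cytb, of complex III, fell from 2453, 2242 and 2314 CPM to 1603, 1504 and 1835 CPM (log2 fold change -0.50, SE 0.10, adjusted p = 0.00192), and mt-Co1, of complex IV, rose from 9845, 8944 and 8911 CPM to 12105, 11125 and 13809.8 CPM (log2 fold change 0.42, SE 0.11, adjusted p = 0.00897), a call lost without MitoPositive D (adjusted p = 0.0514). mt-Nd4 (-0.38) and mt-Nd6 (0.34) were called lower and higher, and those calls too were lost when 1 library was left out (MitoPositive C for mt-Nd4, any of MitoPositive B or D and monoculture B or D for mt-Nd6, adjusted p = 0.056 for the former and 0.0544 to 0.0884 for the latter).

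Nuclear genes of the respiratory chain were seldom called: 5 of 80 were called higher and 14 lower (median log2 fold change -0.06). Ndufa4 fell from 57.9, 61.5 and 68.1 CPM to 31.8, 37.8 and 35.5 CPM (log2 fold change -0.84, SE 0.08, adjusted p = 6.12e-06), Cox7a2l, which helps form supercomplexes, fell 1.36-fold, and Cycs, cytochrome c, rose 1.48-fold. Cox6b2, the testis form of a complex IV subunit that stood below 1 CPM in monoculture, reached 11.8, 16.5 and 16.9 CPM (log2 fold change 4.59, SE 0.38, adjusted p = 2.31e-05). The number called higher was 19 without monoculture D and 13 when scaled by total counts. Mitochondrial ribosomal proteins were seldom called: 13 of 78 were called higher and 7 lower (median log2 fold change 0.02), with 8 called higher without MitoPositive C or monoculture B and 26 without monoculture D. Of genes of mitochondrial biogenesis, import and dynamics, 12 of 43 were called higher and 10 lower (median log2 fold change 0.01), with 7 called higher without MitoPositive C or monoculture C. Tfam, the packaging factor of mitochondrial DNA, was at 69.1, 67.5 and 71.8 CPM and 69.6, 62.3 and 64.1 CPM and was not called (log2 fold change -0.09, SE 0.07, adjusted p = 0.33). Rhot1, encoding the transport adaptor Miro1, rose 1.13-fold (log2 fold change 0.18, SE 0.06, adjusted p = 0.0371), Pink1, a kinase of mitophagy, fell 1.31-fold, and Bnip3l, a mitophagy receptor, fell from 232, 207 and 244 CPM to 152, 153 and 164 CPM (log2 fold change -0.54, SE 0.07, adjusted p = 5.66e-05).

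Of MYC and ribosome biogenesis genes, 21 of 46 were called higher and 3 lower (median log2 fold change 0.22). Myc rose from 99.7, 113 and 112 CPM to 165, 191 and 172 CPM (log2 fold change 0.70, SE 0.08, adjusted p = 2.42e-05), Odc1, the first enzyme of polyamine synthesis, from 127, 155 and 149 CPM to 450.1, 463 and 444 CPM (log2 fold change 1.66, SE 0.08, adjusted p = 5.53e-08), and Mxd1, an antagonist of MYC, 4.83-fold. Mxd4, a related antagonist, fell 1.85-fold. Of translation factors, 13 of 24 were called higher and 1 lower (median log2 fold change 0.21), with 7 called higher without MitoPositive C and 8 without monoculture B. Cytosolic ribosomal proteins were almost uncalled, 2 higher and 1 lower of 83, with 6 called higher when scaled by total counts and 29 without monoculture D.

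Chromatin genes were called lower more often than higher: 3 of 32 were called higher and 14 lower (median log2 fold change -0.21). Hmgb2, a chromatin protein of dividing and stem-like cells, fell from 399, 453 and 485 CPM to 178, 181 and 222 CPM (log2 fold change -1.20, SE 0.09, adjusted p = 2.09e-06), and Hmgb1 and Tet3 fell 1.68-fold and 1.73-fold. Of proteasome subunits, 2 of 39 were called lower and 0 higher. None was called lower without MitoPositive B, without MitoPositive D or without monoculture D, and 1 was without MitoPositive C or monoculture B. Of NRF2 and antioxidant genes, 7 of 33 were called higher and 8 lower (median log2 fold change 0.04): Osgin1 rose from 5.82, 4.49 and 5.27 CPM to 29.05, 30.1 and 31.6 CPM (log2 fold change 2.54, SE 0.13, adjusted p = 9.97e-08) and Hmox1, heme oxygenase, 3.86-fold, while the glutathione enzyme Gclc and catalase (Cat) fell 1.38-fold and 1.41-fold. Autophagy and lysosome genes were mixed: 9 of 36 were called higher and 7 lower (median log2 fold change 0.02). Of heat shock proteins, 3 of 18 were called higher and 4 lower (median log2 fold change 0.05), with 7 called higher without monoculture D and 6 when scaled by total counts. Of replication-dependent histones, 5 of 24 were called higher and 3 lower (median log2 fold change 0.18), with 1 called lower when any MitoPositive library or monoculture D was left out.

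Genes of adhesion, cytoskeleton and nanotubes moved in both directions: 20 of 51 were called higher and 14 lower (median log2 fold change 0.03). Myo10, the filopodial motor, rose from 5.03, 6.34 and 5.78 CPM to 24.04, 34.4 and 23.98 CPM (log2 fold change 2.26, SE 0.16, adjusted p = 1.52e-06), and Tubb6, a beta tubulin, 5.56-fold. Tln2, talin 2, rose from 1.13, 1.36 and 1.46 CPM to 2.65, 3.77 and 3.35 CPM (log2 fold change 1.30, SE 0.19, adjusted p = 0.000177), and Tln1, the talin that links integrins to actin in T cells, fell from 922, 875 and 964 CPM to 606, 628 and 658 CPM (log2 fold change -0.55, SE 0.07, adjusted p = 5.89e-05). Fscn1, the actin bundler fascin, fell 3.16-fold, and Icam1 rose from 70.5, 72.2 and 74.8 CPM to 189, 205 and 172 CPM (log2 fold change 1.38, SE 0.07, adjusted p = 1.43e-07). Tnfaip2, a nanotube factor also known as M-Sec, was below 1 CPM in all 6 libraries and was not called (log2 fold change -0.09, SE 0.59, adjusted p = 0.918). Adhesion genes such as Myo10, Tubb6, Tln2 and Icam1 are expressed by stromal cells too.

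Genes of the TGF-beta response were divided: 8 of 23 were called higher and 6 lower (median log2 fold change 0.04). Serpine2, a protease inhibitor, rose from 18.2, 22.8 and 17.2 CPM to 301, 378 and 283 CPM (log2 fold change 4.05, SE 0.15, adjusted p = 7.29e-08) while Id3 fell. Of genes of the prostaglandin and cyclic AMP response, 14 of 27 were called higher and 3 lower (median log2 fold change 0.25); Crem, a cyclic AMP responsive factor, rose 2.31-fold and Rgs1, which dampens chemokine receptor signals, rose from 31.2, 33.4 and 21.4 CPM to 212, 197 and 167 CPM (log2 fold change 2.75, SE 0.16, adjusted p = 1.84e-06).

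Several of the largest differences lay outside the lists. Prnp, the prion protein, rose from 7.69, 10.3 and 7.34 CPM to 154, 179 and 109 CPM (log2 fold change 4.12, SE 0.21, adjusted p = 2.45e-06), Adam8, a membrane protease, from 7.67, 5.44 and 7.48 CPM to 107, 109 and 74.3 CPM (log2 fold change 3.82, SE 0.19, adjusted p = 1.12e-06), and Tgm2, a transglutaminase, from 6.31, 5.11 and 10.8 CPM to 83.6, 96.9 and 110.5 CPM (log2 fold change 3.71, SE 0.29, adjusted p = 5.95e-05). In CPM, Plac8, Nabp1 and Rnf213 were among the largest rises: Nabp1, a single-stranded DNA binding protein, went from 147, 171 and 132 CPM to 773, 795 and 585 CPM (log2 fold change 2.26, SE 0.13, adjusted p = 2.9e-07). Rnf213, a large ubiquitin ligase that interferon induces, was again highest in MitoPositive B, at 1249.5, 755 and 765 CPM against 372, 336 and 259 CPM. Among the falls, Pcsk1, a prohormone convertase, dropped from 62.8, 43.5 and 64.98 CPM to 3.82, 3.16 and 4.03 CPM (log2 fold change -3.95, SE 0.20, adjusted p = 5.63e-07), and Rnf144a, a ubiquitin ligase, from 39.7, 39.7 and 49.7 CPM to 3.703, 3.64 and 5.27 CPM (log2 fold change -3.35, SE 0.15, adjusted p = 7.66e-08). Fcmr, the IgM receptor, fell 13.8-fold, Vipr1, a neuropeptide receptor of resting T cells, 5.13-fold, and Gucy1a1, a subunit of guanylate cyclase, 7.94-fold. Fcmr is also a gene of B cells, whose markers moved with it as given below. The GTPases Gimap3 and Gimap4, which support T-cell survival, fell from 1089, 991 and 1040.3 CPM to 573, 507 and 531 CPM and from 1517, 1429 and 1497 CPM to 1190.2, 943 and 918 CPM (-0.95, SE 0.07 and -0.54, SE 0.11 on the log2 scale).

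Transcripts that were near 0 in T cells cultured alone were set apart, since stromal RNA carried along could supply them. Of the 556 tested genes below 0.1 CPM in monoculture, 69 had 0 counts in all 3 monoculture libraries, 39 were in the lists of stromal markers and secreted factors, and 33 reached a MitoPositive mean of 1 CPM, 17 of which were in those lists. Of 57 stromal markers found in the table, 24 had 0 counts in monoculture, and 22 of these 24 were above 0 in all 3 MitoPositive libraries. Among tested members of the 2 lists, 36 of 42 markers and 23 of 28 secreted factors were called higher, against 22.3% of all genes tested. Their medians were 4.43 and 3.63 on the log2 scale when members at 0 counts are set at a floor of 3 counts over the monoculture group. Of the 68 tested genes in the 2 lists, the 39 near-0 ones passed the filter through the co-cultured libraries. These counts and medians are therefore a description and not support.

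Col1a2, a collagen chain (GRCm38 chr6:4504814-4541544), had 0 counts in monoculture and 5.35, 5.19 and 2.09 CPM in MitoPositive, at least 251-fold higher against that floor. Fn1, fibronectin, was at 0.0819, 0.0665 and 0.0166 CPM in monoculture and 9.67, 10.03 and 3.28 CPM in MitoPositive, and at 9.04, 9.65 and 3.66 CPM in MitoNegative. Ccl2, a chemokine that stromal cells secrete, had 0 counts in monoculture and 3.29, 4.35 and 1.62 CPM in MitoPositive, at least 180.2-fold higher. Sparc, Cald1 and Thbs2, matrix or contractile genes, likewise had 0 counts in monoculture and were at least 134-fold, 124-fold and 133-fold higher. In these genes the D library was the lowest in MitoPositive. Over the 43 stromal markers below 0.1 CPM in monoculture, the sum was 0.344, 0.366 and 0.944 CPM in monoculture, 42.4, 51.8 and 18.2 CPM in MitoPositive and 47.2, 53.7 and 19.3 CPM in MitoNegative. In both co-cultured groups the sum was lowest in D. The low level in monoculture chose these members, so the distance from monoculture is a description with no test. The sum of the whole list, 464 CPM in monoculture and 941 CPM in MitoPositive, is mostly Ly6a, a gene that T cells express themselves and that interferon raises (406, 306 and 433 CPM and 992, 669.5 and 669 CPM).

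Among other near-0 transcripts, some followed the stromal sum from library to library and some did not. Ak1, an adenylate kinase that p53 induces, was at 0.0164, 0 and 0.0497 CPM in monoculture and 4.14, 5.75 and 5.16 CPM in MitoPositive, with 2.13, 2.52 and 3.51 CPM in MitoNegative. Ckmt1, the mitochondrial creatine kinase, was at 0.0164, 0.0665 and 0.0994 CPM, 3.62, 5.15 and 4.99 CPM and 1.47, 2.11 and 4.56 CPM in the same order, and Gcnt3, a glycosyltransferase, at 0, 1.65, 1.905 and 1.65 CPM and 0.937, 1.42 and 1.11 CPM. In these 3 genes MitoPositive D was close to or above B. Each named near-0 gene was also divided by the stromal sum of the same library, and the highest of the 6 co-cultured libraries was compared with the lowest. In the stromal lists this ratio ran from 1.247 for Col5a2, 1.27 for Fn1 and 1.43 for Ccl2 to 2.67 for Thbs2, 3.86 for Cxcl12 and 5.06 for Ccn2. Outside them it ran from 1.49 for Ltbp2, 1.56 for Lrp1 and 1.97 for C1s1 through 4.53 for Ano7, 4.56 for Gcnt3 and 6.3 for Ak1 to 8.8 for Ckmt1 and 12.0 for Notch3. The 2 ranges overlapped, so the ratio does not separate stromal list members from other genes. Fn1 is part of the sum it is divided by, while Ccl2 and Lrp1 are not, and these ratios are descriptions with no test. Ifi204, an interferon-inducible DNA sensor, was at 0.0656, 0 and 0.0828 CPM in monoculture and 12.6, 5.47 and 4.24 CPM in MitoPositive, again highest in B. Pparg, the fatty acid sensing nuclear receptor, had 1 count in the 3 monoculture libraries together and 0.764, 0.9897 and 0.544 CPM in MitoPositive against 0.119, 0.158 and 0.0889 CPM in MitoNegative.

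**Figure D5:**
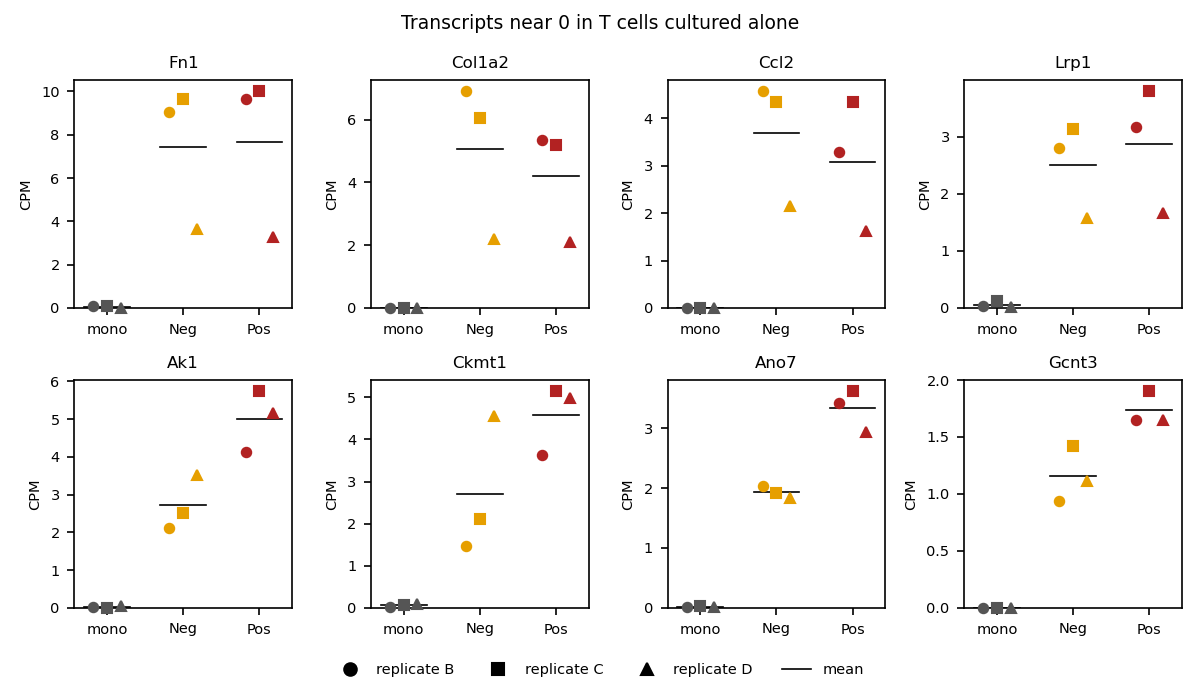
CPM of 8 genes below 0.1 CPM in monoculture in each library, with monoculture (mono), MitoNegative (Neg) and MitoPositive (Pos) on the horizontal axis, symbols for the replicate letter and a line at the mean. In the upper row (Fn1, Col1a2, Ccl2, Lrp1) replicate D is the lowest of both co-cultured groups, and in the lower row (Ak1, Ckmt1, Ano7, Gcnt3) the MitoPositive mean is above the MitoNegative mean.

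Markers of other cell types also moved. Of 20 B-cell markers, 15 were called lower and 0 higher, and their sum fell from 754, 740.3 and 813 CPM in monoculture to 291, 326 and 331 CPM in MitoPositive. Cd22 fell from 7.77, 9.94 and 10.3 CPM to 0.646, 0.952 and 1.49 CPM (log2 fold change -3.18, SE 0.28, adjusted p = 5.43e-06) and Ms4a1, encoding CD20, from 12.3, 18.9 and 20.6 CPM to 2.78, 3.98 and 4.44 CPM (log2 fold change -2.21, SE 0.22, adjusted p = 2.39e-05). Of 16 markers of dendritic cells and MHC class II, 7 were called lower and 2 higher; H2-Aa fell from 20.9, 25.2 and 28.5 CPM to 1.86, 2.82 and 3.84 CPM (log2 fold change -3.13, SE 0.27, adjusted p = 1.96e-05). Of 12 myeloid markers 4 were higher and 4 lower, and their sum stayed between 11.4 and 16.2 CPM in the 6 libraries. The natural killer list summed higher in MitoPositive (395, 437 and 364 CPM against 183, 204 and 257 CPM), chiefly through Nkg7, a granule gene that activated CD8+ T cells express (log2 fold change 0.9968, SE 0.11, adjusted p = 2.58e-05), while 3 of its 6 tested members were called lower (1 without MitoPositive B or C or monoculture D). Of 6 CD4+ T-cell markers 2 were called higher and 2 lower, and of 3 markers of erythroid cells and platelets 0 were called by edgeR, with 0 at an unadjusted p below 0.05. Of 9 RNAs of library composition, 3 were called higher and 0 lower. The part that these cells have in falls of shared genes such as Fcmr was not tested.

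DsRed-negative cells of the co-cultures give the same genes a second set of values. MitoNegative against monoculture shares the monoculture libraries, so its values are only set beside the others: 6110 genes (38.9%) were called. The log2 fold change of Klf2 was -4.88 in MitoPositive and -3.91 in MitoNegative, that of Gzmb 4.40 and 3.74, that of Rsad2 4.42 and 5.02, and that of Pgk1 2.26 and 2.23. The direct test of MitoPositive against MitoNegative called 26 genes (0.165%), 14 higher (0.0891%) and 12 lower (0.0764%). Among genes named here these were Cdkn1a, Phlda3, Prdm1, Serpine2, Tnfsf4 and Pparg, higher in MitoPositive, and Smc4, Rnf144a and mt-Rnr1, lower.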

How the data were processed

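RNA was measured in 9 libraries of mouse T cells, made from 1.4 ug of total RNA after ribosomal depletion per the labels' protocols. The deposited table holds raw counts per gene from the authors. The submitters' processing notes list the build GRCm38 with featureCounts, STAR 2.7, cutadapt, bcl2fastq and DESeq2 as tools. Which annotation release and strand setting were used is not given in the sources used here. Reads of overlapping antisense genes therefore cannot be told apart. The titles also carry 0 hr, which the labels do not explain.

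Genes passed filterByExpr (minimum count 10, minimum total 15) and were fitted in R 4.3.3 with edgeR 4.0.16 (TMM scaling, robust quasi-likelihood, all 9 libraries, 6 residual degrees of freedom). SE is the absolute log2 fold change over the square root of F, and p-values were adjusted over all 15711 genes. The scripts were tested on simulated data. DESeq2 1.42.0 and the other alternatives changed 1 choice at a time, except that the block in 6 libraries changed both the model and the libraries fitted.

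The contrast, the 55 gene lists and the naming rule were chosen with earlier results of these data known. For the largest changes, the rule took called protein-coding genes outside other cell types' markers whose groups did not overlap in CPM. Their monoculture mean was at least 1 CPM for rises and 5 CPM for falls. From these came the 15 largest rises and falls by fold and the 8 largest each way by CPM. Lack of overlap in these genes was thus set by the rule and is not support. Then 10 stromal and 15 other near-0 genes and up to 6 members of each list were taken. A short list of 12 genes was named whatever its values. Named outside the rule, after their values were seen, were Asns, Atf4, B2m, Bach2, Bbc3, Ccng1, Ccr7, Cd28, Cd69, Cxcr3, Egr2, Foxo1, Il2, Il7r, Irf7, Isg15, Lag3, Ldha, Lef1, Ly6a, Mdm2, Mki67, Nr4a1, Pink1, Rhot1, Slc2a1, Tbx21, Thy1, Tigit, Tnf, Tnfaip2, Trib3, Trp53 and Zmat3. Aldoa has 2 identifiers, of which the more abundant was used.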

Additional observations from a re-analysis of the deposited data

Results flagged for a closer look

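For 9 of the genes named, the change against monoculture differed between the 2 kinds of co-cultured cell in edgeR's test of MitoPositive against MitoNegative. The difference in log2 units was 0.79 for Cdkn1a (adjusted p = 0.0464), 0.49 for Phlda3 (adjusted p = 0.00713), 0.81 for Prdm1 (adjusted p = 0.0464), 0.87 for Serpine2 (adjusted p = 0.0464) and 0.83 for Tnfsf4 (adjusted p = 0.046), with MitoPositive the higher. For Pparg it was 2.62 (adjusted p = 0.046), at 0.764, 0.9897 and 0.544 CPM in MitoPositive and 0.119, 0.158 and 0.0889 CPM in MitoNegative. MitoPositive was the lower by -0.58 for Smc4 (adjusted p = 0.0464), -1.03 for Rnf144a (adjusted p = 0.046) and -1.03 for mt-Rnr1 (adjusted p = 0.0015). Several of these adjusted p-values lay just below 0.05, and this test was not repeated under the alternatives described below. Groups of 3 libraries are too small for a check of single outlying libraries.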

How the results depend on the processing

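The naming rule took 323 called genes, not all of which are named above. Of these, 292 kept their direction and their side of the threshold in each of the 13 alternatives that gave a value. The other 31 lost the call in at least 1. Genes named outside the rule were not in this count. The number of genes called in all was 6637, and with 1 library left out it ranged from 5484 to 6695. Cd8a, which was not called, changed sign without MitoPositive B (log2 fold change -0.0097) and without monoculture C (-0.033), with a range of -0.033 to 0.081 over the libraries left out. The cause was not tested. The near-0 class of 556 genes became 291 under 0.05 CPM, 3249 under 0.5 CPM and 4318 under 1 CPM, by construction. The stromal marker sum of 941 CPM in MitoPositive became 37.5 CPM over members under 0.1 CPM in monoculture, also by construction. Scaling by total counts moved the median of all genes to 0.037 and the share of calls that were higher from 52.8% to 58.6%. Whether the letters pair the libraries depended on the genes used. Across all 15711 genes, which are not independent replicates, same-letter deviations correlated at r = 0.248 (B), 0.0521 (C) and 0.163 (D), and MitoPositive C was closer to monoculture D (0.0622). Across the 11629 genes with a mean of at least 1 CPM, r was 0.465, 0.157 and 0.304, each the highest for its MitoPositive library, and the second principal component (9.09% of variance) ordered B, C and D alike in all 3 groups. The labels do not say what a letter shares, so the fit without the block was kept as planned. With the letter as a replicate block, 7508 genes were called in 9 libraries and 6562 in 6 libraries, where the smaller fit tested 15070 genes. The block moved mitosis genes called lower from 8 to 45 and 43, and DNA replication genes from 14 to 24 and 23. The other list counts that it moved by over 1.5 times were counts of 4 or fewer. Depth limits genes below 0.1 CPM, where a library gave only a few counts.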
